A study of Sus scrofa with 13 samples.

Results

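Skeletal muscle mass is held between protein synthesis and protein breakdown, and the genes described here belong to the breakdown side and to the hormone that drives it. FOXO transcription factors enter the nucleus when insulin and Akt signalling is low, and they then switch on muscle-specific ubiquitin ligases that mark contractile proteins for the proteasome. Glucocorticoids act through a receptor that is itself a transcription factor, and in muscle they induce FOXO genes and the same ligases. The set was defined by 10 gene symbols, given as FOXO1, FOXO3, SIRT1, FBXO32, TRIM63, CEBPD, FKBP5, TSC22D3, NR3C1 and KLF15, and it was put together with the Hampshire differences of FOXO3, SIRT1 and CEBPD already in view. Of these, 9 were found among the 25322 genes of the count tables, and all 9 passed the filter on low counts in both breeds. TSC22D3 was not analysed here.

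RNA was sequenced from the longissimus lumborum, the loin muscle, of 13 female pigs aged 6 months, none of which carried a treatment or an engineered allele. They were purebred Hampshire and Pietrain pigs taken at slaughter and sorted within each breed by the weight of the loin. The groups held 3 Hampshire pigs with high loin weight (pigs 8, 9 and 10), 3 Hampshire pigs with low loin weight (pigs 1, 2 and 3), 4 Pietrain pigs with high loin weight (pigs 1, 2, 6 and 7) and 3 Pietrain pigs with low loin weight (pigs 3, 5 and 8). A pig number names an animal within its breed and group and links no animals across groups.

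The libraries held 11312755 to 20134612 counts. The deepest was Pietrain high pig 7, and the most abundant gene took 3.69% to 11.2% of a library. The summed level of 6 matched skeletal muscle markers, among them ACTA1, CKM and MYH1, was 102433 to 264285 CPM (reads of a gene scaled to a common library size) in the 13 pigs, so muscle markers made up a large share of each library. Sums of adipocyte, macrophage and fibroblast markers were higher in the Hampshire pigs with high loin weight than in those with low loin weight without overlap, and their values stand below beside the results they move with. In such whole-muscle RNA, fewer cells of a type and less RNA per cell cannot be told apart.

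Levels are given as CPM after scaling by trimmed means over the 13 pigs (TMM), and since transcript lengths were not used, a level is compared between pigs of 1 gene and never between genes. The Hampshire comparison of high with low loin weight was part of how the set was chosen, so its values for the 9 genes are a description and carry no test. The Pietrain comparison was tested with edgeR's quasi-likelihood test over all genes and, gene by gene, with an exact permutation test over the 35 splits of the 7 pigs, whose smallest possible two-sided p is 0.0286. CEBPD had also been singled out in the study from these Pietrain pigs, so its Pietrain test is not independent evidence.

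**Figure D1:**
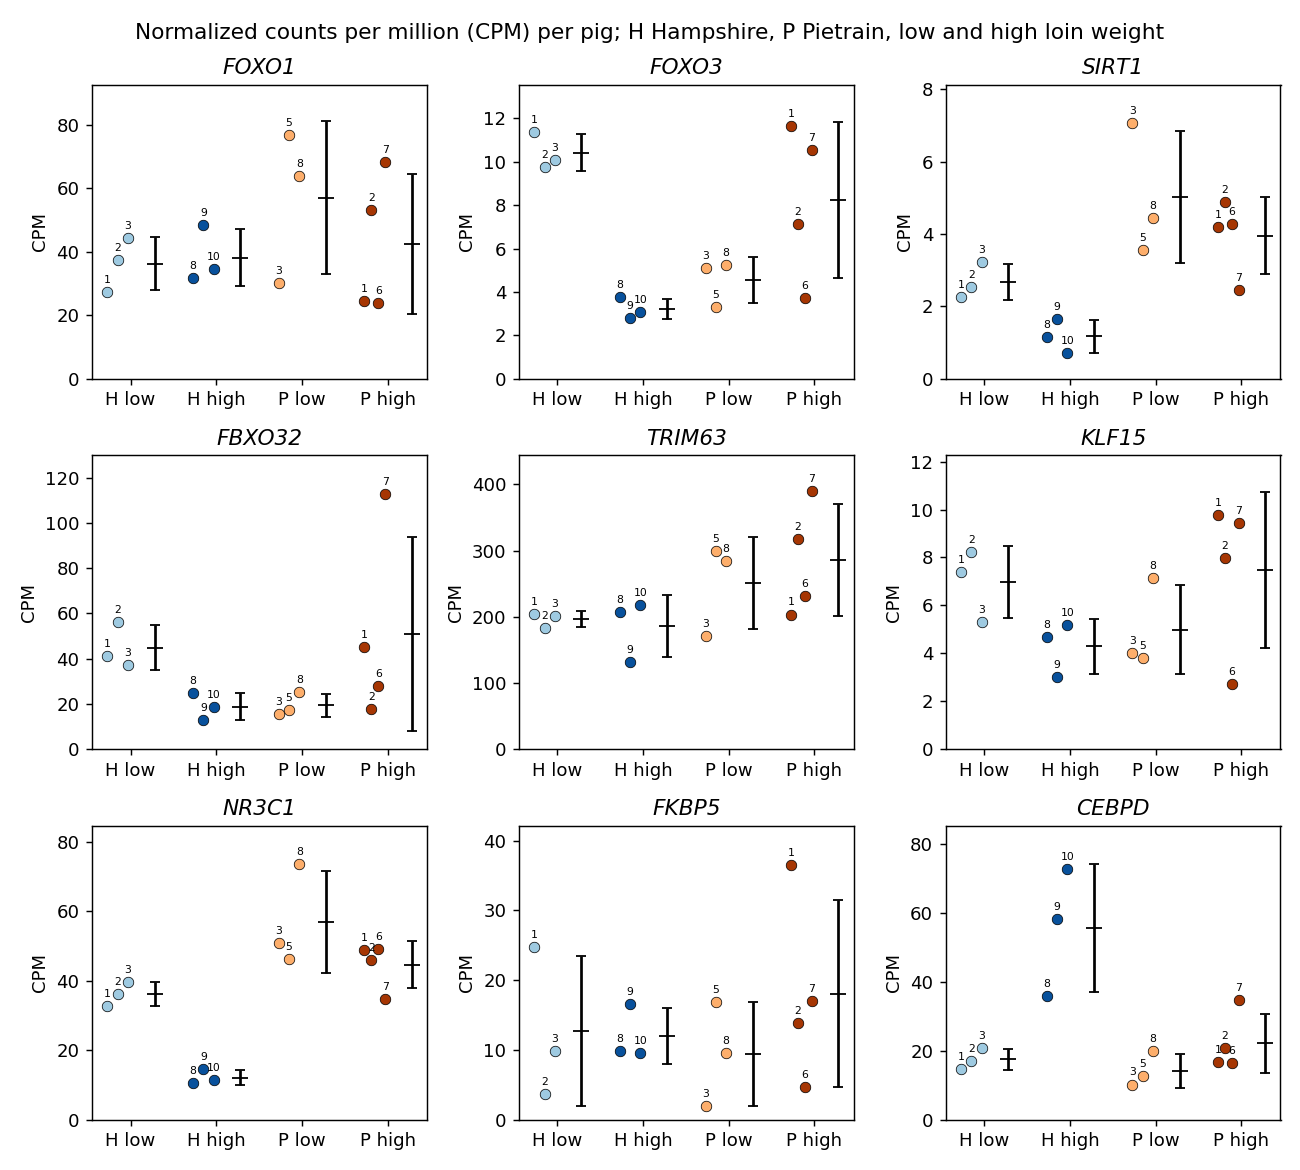
Normalized level in CPM (vertical axis, linear, from 0) of the 9 genes in every pig, with groups on the horizontal axis; each point is a pig with its number, and each bar is the group mean ± SD. In the Hampshire pigs the high group lies below the low group for FOXO3, SIRT1, FBXO32, NR3C1 and KLF15 and above it for CEBPD, while the Pietrain groups overlap for all 9 genes.

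In the Hampshire pigs, loin weight separated all high from all low pigs for 6 of the 9 genes, beside 45.9% of the 12228 genes tested (22.4% with the high pigs above and 23.5% with them below). Since these pigs served to choose the set, nothing is read from that count. FOXO3, SIRT1, FBXO32, NR3C1 and KLF15 were lower in every pig with high loin weight, and CEBPD was higher in every one. In the Pietrain pigs, none of the 9 genes was differentially expressed (adjusted p below 0.05 with a change of 1.2-fold or more), where 0% of 12065 genes were by edgeR's quasi-likelihood test. The groups overlapped for all 9 genes there, and 4.59% of the 12065 tested genes were free of overlap. The log2 fold change was above 0 for 6 of the 9 genes and for 52.4% of all genes. At an unadjusted p under 0.05, FOXO3 and FBXO32 passed in Pietrain, 2 of 9 genes against 3.3% of all genes, and DESeq2 called 1 gene in all and none of the 9. The median log2 fold change of the 9 genes in Pietrain was 0.61, beside 0.02 over all tested genes. In Hampshire it was -0.70, beside 0.03. Nothing is read from the Hampshire median either, since those pigs served to choose the set, and the 2 medians were not compared by a test.

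FOXO3 is the FOXO factor most often linked to muscle wasting, where it drives both ubiquitin ligases and autophagy genes. It lies on chromosome 1 at positions 83886632 to 84048935 of the Sscrofa10.2 build. In Hampshire pigs with high loin weight its level was 3.75, 2.82 and 3.07 CPM (pigs 8, 9 and 10), and in those with low loin weight 11.4, 9.77 and 10.1 CPM (pigs 1, 2 and 3). The groups stood far apart and each was narrow. The high group averaged 3.21 ± 0.480 CPM (SD, n = 3) and the low group 10.4 ± 0.858 CPM (SD, n = 3). FOXO3 was thus 3.24-fold lower with high loin weight (log2 fold change -1.70, SE 0.214). In Pietrain pigs the order of the means was the other way round, with 11.7, 7.13, 3.70 and 10.5 CPM in the high group (pigs 1, 2, 6 and 7) and 5.09, 3.32 and 5.24 CPM in the low group (pigs 3, 5 and 8). Pietrain high pig 6 lay inside the range of the low group and the other 3 high pigs above it. The Pietrain log2 fold change was 0.89 (SE 0.394), with an adjusted p of 0.939 by edgeR's quasi-likelihood test (unadjusted 0.0469) and an exact two-sided permutation p of 0.200. Whether the loin weight difference of FOXO3 differed between the breeds was not tested, because the Hampshire values had helped to choose the gene. Over the 4 groups the mean was highest in Hampshire low, then Pietrain high, Pietrain low and Hampshire high, and the pigs of each neighbouring pair of groups overlapped.

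FOXO1, the other FOXO factor of the set and one that muscle induces in fasting, showed no such separation. It lies on chromosome 11 at positions 15544860 to 15688360. Its level in Hampshire pigs was 31.6, 48.3 and 34.5 CPM with high loin weight and 27.3, 37.2 and 44.1 CPM with low loin weight. These groups overlapped almost fully, with a log2 fold change of 0.07 (SE 0.224). In Pietrain pigs it was 24.4, 53.1, 23.8 and 68.2 CPM with high loin weight and 30.1, 76.8 and 63.9 CPM with low loin weight. The Pietrain pigs spread over a 3.22-fold range that cut across the groups, against a 1.77-fold range in Hampshire. The Pietrain log2 fold change was -0.38 (SE 0.416), with an adjusted p of 0.939 by edgeR's quasi-likelihood test and an exact permutation p of 0.429. It ran from -0.72 without high pig 7 to -0.13 without low pig 5. The group means ran from Pietrain low down to Pietrain high, Hampshire high and Hampshire low, with each neighbouring pair overlapping.

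SIRT1 is a deacetylase that depends on NAD and acts on FOXO proteins, histones and the mitochondrial coactivator PGC-1alpha. It lies on chromosome 14 at positions 77054006 to 77080789. Its libraries held few counts, with 17, 18 and 11 counts in the Hampshire high pigs (8, 9 and 10) and 37, 52 and 46 in the Hampshire low pigs (1, 2 and 3). As normalized levels these were 1.16, 1.64 and 0.703 CPM against 2.27, 2.53 and 3.22 CPM, so that every high pig lay below every low pig. The high group averaged 1.17 ± 0.466 CPM (SD, n = 3) and the low group 2.67 ± 0.495 CPM (SD, n = 3), and the log2 fold change was -1.22 (SE 0.369). Pietrain levels were higher, at 4.20, 4.89, 4.28 and 2.45 CPM with high loin weight and 7.06, 3.56 and 4.44 CPM with low loin weight. The Pietrain groups overlapped, with the highest value in low pig 3 and the lowest in high pig 7. The log2 fold change there was -0.32 (SE 0.348), with an adjusted p of 0.939 by edgeR's quasi-likelihood test and an exact permutation p of 0.457, and without low pig 3 it turned to 0.04. From the highest mean the groups were Pietrain low, Pietrain high, Hampshire low and Hampshire high, and only the last pair of neighbours did not overlap.

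FBXO32 encodes atrogin-1 (MAFbx), the muscle F-box protein that brings substrates to an SCF ubiquitin ligase and a standard marker of atrophy. It lies on chromosome 4 at positions 16638622 to 16669461. Hampshire pigs with high loin weight had 24.8, 12.7 and 18.7 CPM and those with low loin weight 41.1, 56.2 and 37.3 CPM. The groups did not overlap, and the log2 fold change was -1.26 (SE 0.257), or 2.39-fold lower with high loin weight. In Pietrain pigs the levels were 44.9, 17.6, 27.9 and 113 CPM with high loin weight (pigs 1, 2, 6 and 7) and 15.4, 17.3 and 25.3 CPM with low loin weight (pigs 3, 5 and 8). High pig 7 stood above all other pigs of both breeds, high pig 2 lay among the low pigs, and the Pietrain range was 7.30-fold. The Pietrain log2 fold change was 1.44 (SE 0.551), with an adjusted p of 0.939 by edgeR's quasi-likelihood test (unadjusted 0.0253) and an exact permutation p of 0.171. Without high pig 7 it was 0.66. The order of the means was Pietrain high, Hampshire low, Pietrain low and Hampshire high, and of the neighbours Hampshire low and Pietrain low did not overlap.

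TRIM63 encodes MuRF1, the sarcomere-bound RING finger ligase that acts on myosin heavy chain and is the usual partner marker of atrogin-1. Its position was not in the deposited tables. Hampshire pigs had 207, 132 and 217 CPM with high loin weight and 204, 183 and 202 CPM with low loin weight. The low group fell inside the range of the high group, with a log2 fold change of -0.08 (SE 0.212). Unlike FBXO32, TRIM63 thus had no gap between the Hampshire groups. Pietrain pigs had 203, 318, 231 and 390 CPM with high loin weight and 170.5, 299 and 284 CPM with low loin weight. These overlapped as well, with high pig 7 again highest, a log2 fold change of 0.23 (SE 0.277), an adjusted p of 0.940 by edgeR's quasi-likelihood test and an exact permutation p of 0.600. Without high pig 7 the TRIM63 value was 0.0277. Pietrain high had the highest mean, followed by Pietrain low, Hampshire low and Hampshire high, all overlapping their neighbours.

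NR3C1 encodes the glucocorticoid receptor. It lies on chromosome 2 at positions 151054873 to 151158579. Hampshire pigs with high loin weight had 10.4, 14.5 and 11.4 CPM and those with low loin weight 32.8, 36.1 and 39.7 CPM. The receptor's transcript was thus about as clearly separated as FOXO3, at 12.1 ± 2.11 CPM (SD, n = 3) in the high and 36.2 ± 3.42 CPM (SD, n = 3) in the low group (log2 fold change -1.59, SE 0.181). In Pietrain pigs the levels were 48.8, 46.0, 49.2 and 34.6 CPM with high loin weight and 50.8, 46.3 and 73.7 CPM with low loin weight. High pig 7 was lowest, low pig 8 was highest, and the other 5 Pietrain pigs lay between 46.0 and 50.8 CPM. The Pietrain log2 fold change was -0.32 (SE 0.218), with an adjusted p of 0.939 by edgeR's quasi-likelihood test and an exact permutation p of 0.200, and it was -0.09 without low pig 8. Like SIRT1, NR3C1 had its highest mean in Pietrain low, followed by Pietrain high, Hampshire low and Hampshire high, with no overlap between the last pair.

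FKBP5 encodes a co-chaperone of the receptor that glucocorticoids induce and that in turn lowers the receptor's affinity for hormone, which makes it a common readout of recent glucocorticoid exposure. It lies on chromosome 7 at positions 36373069 to 36478480. Hampshire pigs had 9.81, 16.6 and 9.59 CPM with high loin weight and 24.7, 3.74 and 9.88 CPM with low loin weight, so low pig 1 was highest and low pig 2 lowest. The log2 fold change was -0.10 (SE 0.564). Pietrain pigs had 36.5, 13.9, 4.74 and 17.0 CPM with high loin weight and 1.89, 16.9 and 9.55 CPM with low loin weight. FKBP5 was the most variable of the 9 genes between pigs, with a 19.3-fold range in Pietrain and a 6.59-fold range in Hampshire, and neither range followed loin weight. In Pietrain the log2 fold change was 0.98 (SE 0.692), with an adjusted p of 0.939 by edgeR's quasi-likelihood test and an exact permutation p of 0.343, and it was 0.42 without high pig 1. All neighbours overlapped in the order Pietrain high, Hampshire low, Hampshire high and Pietrain low.

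KLF15 encodes a zinc finger factor that the receptor induces in muscle and that promotes the breakdown of branched-chain amino acids. It was placed on an unassembled scaffold, GL896227.2, at positions 46622 to 52812. Hampshire pigs had 4.70, 3.00 and 5.18 CPM with high loin weight and 7.41, 8.21 and 5.33 CPM with low loin weight. The groups did not overlap but came close, with high pig 10 just under low pig 3, and the log2 fold change was -0.70 (SE 0.284). In Pietrain the levels were 9.77, 7.97, 2.73 and 9.45 CPM with high loin weight and 4.02, 3.80 and 7.13 CPM with low loin weight. High pig 6 was the lowest of all and the other 3 high pigs lay above the low pigs. The log2 fold change was 0.61 (SE 0.432), with an adjusted p of 0.939 by edgeR's quasi-likelihood test and an exact permutation p of 0.400. The order of the means matched that of FBXO32, but here every neighbouring pair overlapped.

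CEBPD encodes C/EBPdelta, an early-response leucine zipper factor that glucocorticoids and cytokines induce and that takes part in muscle wasting and in fat cell differentiation. It is a short gene on chromosome 4 at positions 87369054 to 87370589. Hampshire pigs had 35.8, 58.1 and 72.7 CPM with high loin weight (pigs 8, 9 and 10) and 14.6, 17.0 and 20.8 CPM with low loin weight (pigs 1, 2 and 3). It was the only gene of the 9 that was higher in every Hampshire pig with high loin weight, averaging 55.5 ± 18.6 CPM (SD, n = 3) there and 17.4 ± 3.15 CPM (SD, n = 3) in the low group, 3.19-fold higher (log2 fold change 1.68, SE 0.272). In Pietrain pigs it was 16.6, 20.6, 16.6 and 34.6 CPM with high loin weight and 10.2, 12.6 and 19.8 CPM with low loin weight. High pig 7 stood apart, and low pig 8 lay above high pigs 1 and 6. The Pietrain log2 fold change was 0.68 (SE 0.331), with an adjusted p of 0.939 by edgeR's quasi-likelihood test (unadjusted 0.0660) and an exact permutation p of 0.229, and it was 0.36 without high pig 7. From the highest mean the order was Hampshire high, Pietrain high, Hampshire low and Pietrain low, and only the first pair of neighbours did not overlap, narrowly, at 35.8 against 34.6 CPM. NR3C1 and CEBPD were thus far apart in opposite directions in the same Hampshire pigs, while FKBP5 showed no separation there.

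Sums of adipocyte, macrophage and fibroblast markers were higher in the same Hampshire pigs. There, 22.4% of tested genes had all high pigs above all low pigs. Singly, 2 of 3 adipocyte, 2 of 7 macrophage and 2 of 4 fibroblast markers were called higher by edgeR, beside 12% of all genes, and the others were not called. The summed level of 3 matched adipocyte markers of 6 (PLIN1, CIDEC and LIPE) was 26.2 to 75.9 CPM with high and 9.95 to 16.0 CPM with low loin weight. The sum of 7 matched macrophage markers of 8, among them C1QA and CSF1R, was 86.7 to 137 CPM against 33.9 to 72.3 CPM. The sum of 4 matched fibroblast markers of 5, among them COL3A1 and DCN, was 1419 to 3559 CPM against 586 to 1146 CPM. Fat cells and macrophages also express CEBPD, and the part of these sums in its Hampshire difference, and in those of the other 8 genes, was not tested. In Pietrain pigs the same sums overlapped between high and low loin weight, at 5.00 to 19.8 against 5.18 to 7.12 CPM for adipocytes, 14.4 to 37.2 against 12.7 to 19.2 CPM for macrophages and 647 to 1734 against 688 to 1163 CPM for fibroblasts. The satellite cell marker MYF5, the 1 matched of 2, was at 0.389 to 1.60 CPM in Pietrain pigs with high and 0 to 0.317 CPM in those with low loin weight. These groups did not overlap, as for 4.59% of tested genes there, but the levels were near 0 and MYF5 was not called (adjusted p 0.939 by edgeR). Its part in the Pietrain values was not tested. The sums of endothelial and blood markers overlapped between high and low loin weight in both breeds. Among the blood markers, SLC4A1, a defining red cell gene, was at 0 in all 7 Pietrain pigs and at no more than 0.128 CPM in any of the 13 pigs. HBB, another red cell gene, was at 31.5 to 231 CPM over the 13 pigs.

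**Figure D2:**
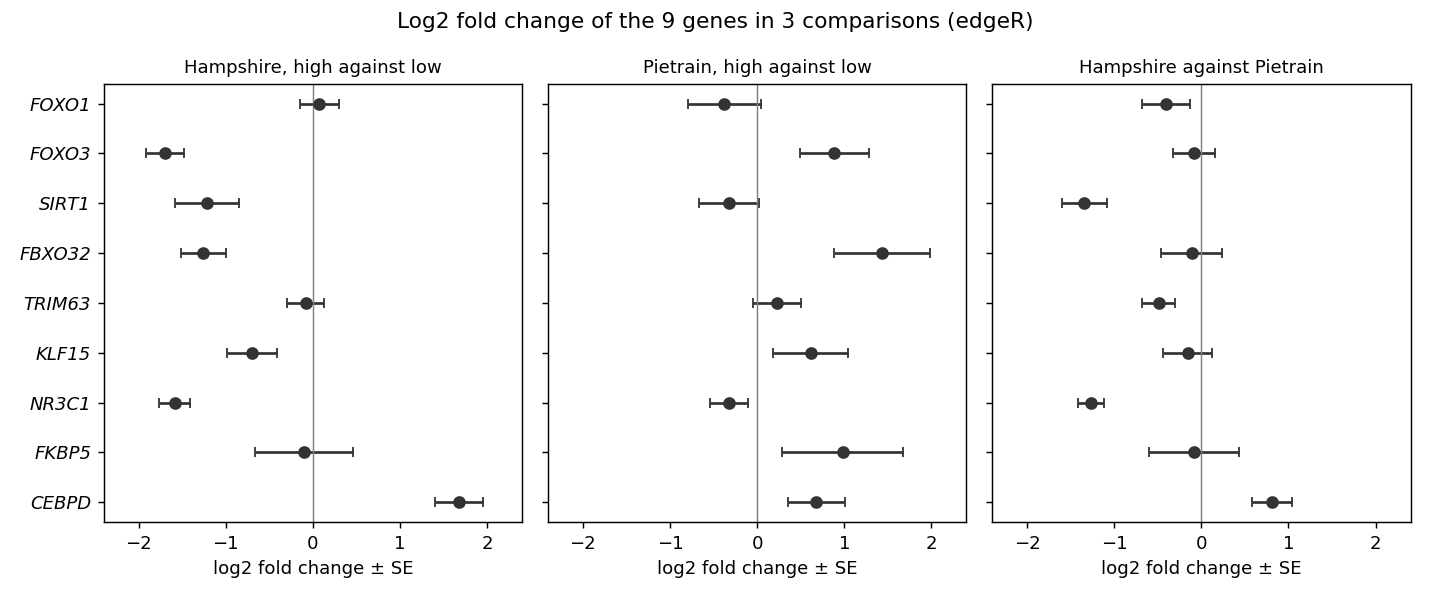
Log2 fold change ± SE (horizontal axis) of the 9 genes (vertical axis) from edgeR, for high against low loin weight in Hampshire (n = 3 and 3) and Pietrain (n = 4 and 3) and for Hampshire against Pietrain averaged over loin weight (n = 6 and 7). In Hampshire the values run from -1.70 for FOXO3 to 1.68 for CEBPD, and in Pietrain from -0.38 for FOXO1 to 1.44 for FBXO32.

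Gene length moved with the Hampshire difference. Over all tested genes with coordinates, the log2 fold change in Hampshire had a Spearman correlation of -0.386 with genomic span, from gene start to gene end (n = 9945 genes, which share the same 6 libraries), against -0.0893 in Pietrain (n = 9964 genes). In 4 equal bins of genes from short to long, the Hampshire median went from 0.42 through 0.14 and -0.10 to -0.33. CEBPD, at 1.54 kb, lies in the shortest bin, as does KLF15 at 6.19 kb, while FOXO1 (144 kb), FOXO3 (162 kb), FKBP5 (105 kb) and NR3C1 (104 kb) lie in the longest. With a correction that removed the trend with length in each pig, the Hampshire log2 fold change was -1.29 for FOXO3, -1.11 for SIRT1, -1.12 for FBXO32, 1.24 for CEBPD, -1.21 for NR3C1 and -0.98 for KLF15. All 6 kept their direction, and FOXO3, CEBPD and NR3C1 moved by more than 1 SD between Hampshire pigs of a group. FOXO1 and FKBP5 were at 0.48 and 0.28 with that correction. The part of RNA quality or library preparation in this trend was not tested.

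**Figure D3:**
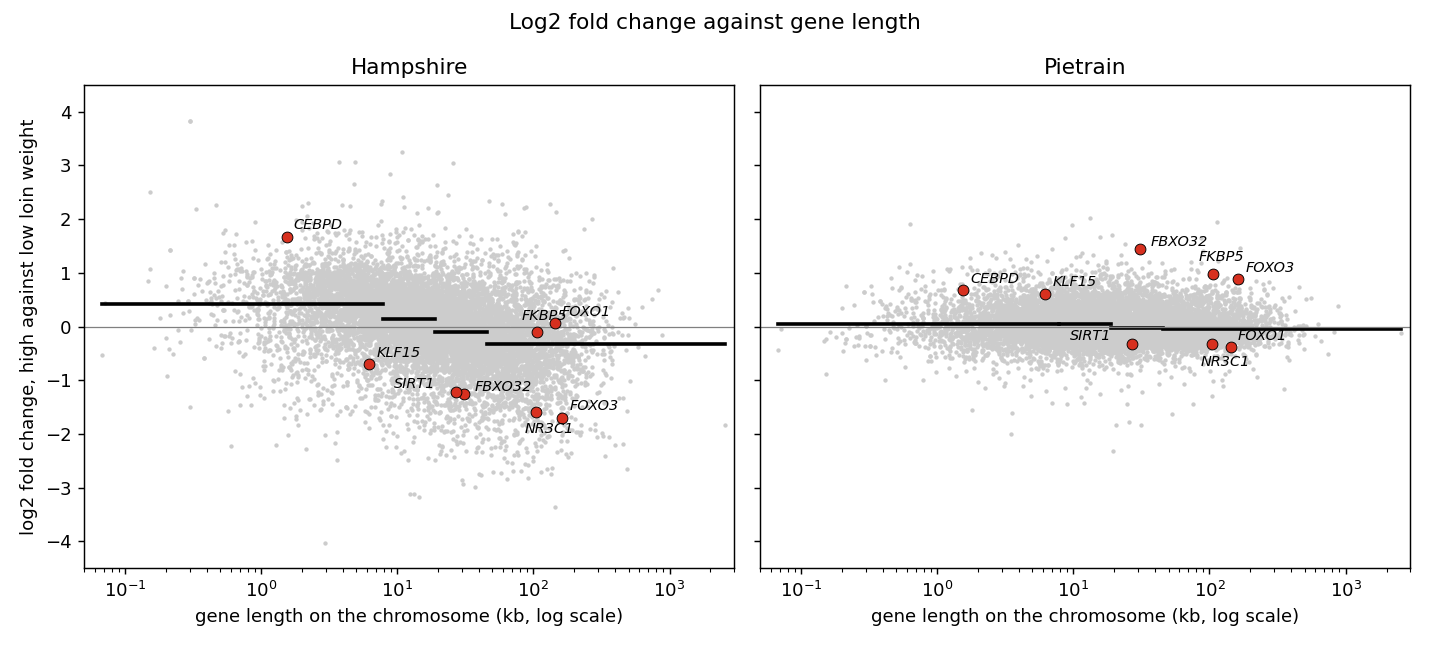
Log2 fold change for high against low loin weight (vertical axis) against gene length on the chromosome in kb (horizontal axis, log scale), in Hampshire and Pietrain pigs; grey points are all tested genes with coordinates, red points the 8 genes of the set that have them, and black lines the medians of 4 equal bins of genes by length. The lines step down from 0.42 to -0.33 in Hampshire and from 0.04 to -0.04 in Pietrain.

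Between the breeds, averaged over loin weight, 4 of the 9 genes were differentially expressed by edgeR (quasi-likelihood test, p-values adjusted after Benjamini and Hochberg), 1 higher and 3 lower in Hampshire, where 52.3% of 12831 genes were (25.4% higher and 26.9% lower). This comparison uses the same Hampshire pigs as the one above. The Hampshire values of FOXO3, SIRT1 and CEBPD had helped to choose the set, so their tests here are not independent evidence. Breed cannot be told apart from anything else that differed between the sets of animals. Over all tested genes with coordinates, the log2 fold change between breeds had a Spearman correlation of -0.342 with genomic span (n = 9975 genes). NR3C1 is long, at 104 kb, and CEBPD short, at 1.54 kb. The part of length in the breed differences was not tested. SIRT1 was 2.53-fold lower in Hampshire (log2 fold change -1.34, SE 0.262, adjusted p 9.05e-04 by edgeR). NR3C1 was 2.41-fold lower (log2 fold change -1.27, SE 0.149, adjusted p 3.03e-05 by edgeR). For both genes the lower level was also present among pigs with low loin weight alone, where every Hampshire pig lay below every Pietrain pig. CEBPD was 1.75-fold higher in Hampshire (log2 fold change 0.81, SE 0.228, adjusted p 0.00885 by edgeR), but among pigs with low loin weight its Hampshire levels of 14.6 to 20.8 CPM overlapped the Pietrain levels of 10.2 to 19.8 CPM. Macrophage markers moved in the same direction, with a sum of 33.9 to 137 CPM over the Hampshire groups and 12.7 to 37.2 CPM over the Pietrain groups and 7 of 7 called higher. So did adipocyte markers, with a sum of 9.95 to 75.9 CPM against 5.00 to 19.8 CPM and 2 of 3 called higher, and the part of either in the breed difference of CEBPD was not tested. TRIM63 was 1.40-fold lower (log2 fold change -0.49, SE 0.189, adjusted p 0.0426 by edgeR), and that call was lost in 8 of the 13 fits that left out a pig, namely Hampshire high pig 9, Hampshire low pigs 1, 2 and 3, Pietrain high pigs 2 and 7 and Pietrain low pigs 5 and 8, with an adjusted p of up to 0.108. FOXO1, FOXO3, FBXO32, FKBP5 and KLF15 stood at -0.40, -0.08, -0.11, -0.08 and -0.15 on the log2 scale and were not called (adjusted p 0.238 to 0.908 by edgeR).

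**Figure D4:**
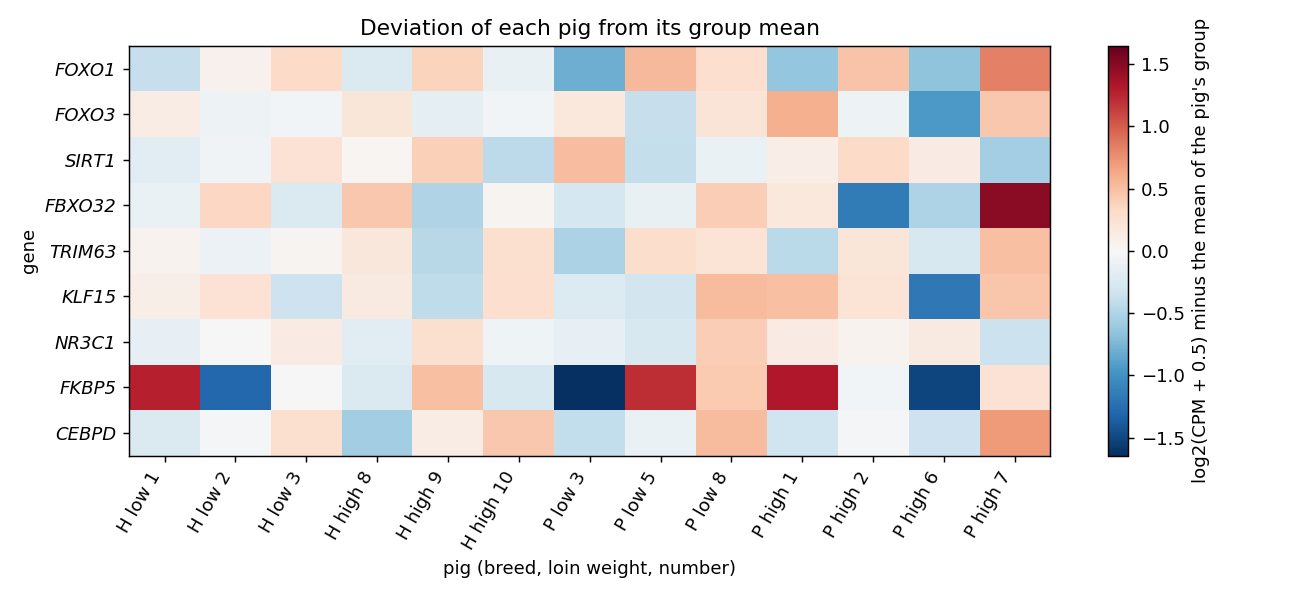
Difference of each pig's log2(CPM + 0.5) from the mean of its own group (colour, red above and blue below) for the 9 genes (vertical axis) in the 13 pigs (horizontal axis, H Hampshire and P Pietrain). FKBP5 has the strongest colours in both breeds, and Pietrain high pig 7 is above its group for FOXO1, FBXO32, TRIM63 and CEBPD and below it for SIRT1 and NR3C1.

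The widest spreads between pigs of the same group were those of FKBP5 and, in Pietrain high, of FBXO32. The coefficient of variation within a group reached 84.3% for FKBP5 in Hampshire low and for FBXO32 in Pietrain high. FBXO32 was at 22.2% to 32.2% in the other groups, and FKBP5 at 33.3% in Hampshire high, where SIRT1 was at 40.0%. NR3C1 stayed between 9.44% and 25.8% in the 4 groups. In Pietrain, pig 7 of the high group was the highest of the 7 pigs for 3 genes (FBXO32, TRIM63 and CEBPD), and pig 1 of the high group for 3 others (FOXO3, FKBP5 and KLF15). After the mean of each group was removed, the ligases FBXO32 and TRIM63 had a Pearson r of 0.42 over the 13 pigs (exact two-sided permutation p 0.304, adjusted 0.666 over 3 pairs) and a Spearman rho of 0.445 (exact p 0.209, adjusted 0.628). Within breeds r was 0.60 over the 6 Hampshire and 0.39 over the 7 Pietrain pigs, and without the 2 pigs farthest from the median of FBXO32 it was 0.48 over all pigs, -0.37 in Hampshire and 0.38 in Pietrain. FOXO1 and FBXO32 had r = 0.23 (exact permutation p 0.666, adjusted 0.666) and rho = 0.104 (exact p 0.777, adjusted 0.777), with -0.58 in Hampshire, 0.35 in Pietrain and -0.28 without the 2 pigs farthest from the median of FOXO1. CEBPD and FKBP5 had r = 0.17 (exact permutation p 0.623, adjusted 0.666) and rho = 0.198 (exact p 0.572, adjusted 0.777), with -0.12 in Hampshire, 0.32 in Pietrain and 0.10 without the 2 farthest pigs. None of these 3 relations passed, so covariation of the ligases, or of the glucocorticoid-induced genes, among pigs of 1 group was not detectable with these 13 animals.

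Among 9239 named genes tested in both breeds, those whose level followed FOXO3 most closely over the 13 pigs were PEG3, a paternally expressed zinc finger gene, with a Pearson r of 0.949, and ERGIC1 with 0.917. For SIRT1 they were MAT2A, the enzyme that makes S-adenosylmethionine, with 0.957, and KMT2E with 0.955. For CEBPD they were YPEL3 with 0.950 and GABARAPL1, an autophagosome protein, with 0.928. These correlations are descriptions over pigs of 4 groups that differ in mean, and they carry no test.

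The wider pathways were described with 5 lists of 116 symbols, none of them among the 9 genes, of which 92 matched a gene, and 90 gene identifiers were tested in Hampshire, 2 of them for INSR. In the Hampshire comparison 5 were higher and 14 lower with high loin weight, where 26.6% of 12228 genes were differentially expressed by edgeR's quasi-likelihood test (12% higher and 14.6% lower), so the lists together were near that background. No listed gene was called in Pietrain, where 0% of 12065 genes were. With the correction for gene length 21 were called in Hampshire (7 higher and 14 lower), 15 of them among those 19. The Hampshire count was 10 without Hampshire low pig 3 and 13 to 17 without any other Hampshire pig.

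Of 19 tested FOXO family members and regulators, none was higher and 3 were lower in Hampshire pigs with high loin weight, with a list median of 0.12 on the log2 scale beside 0.03 over all genes. MDM2, an E3 ligase of p53 that also acts on FOXO proteins, was at 11.01 ± 0.149 against 29.5 ± 1.70 CPM (SD, n = 3 each), a log2 fold change of -1.43 (adjusted p 0.00150 by edgeR). The acetyltransferase EP300 was at -0.63 (adjusted p 0.0315 by edgeR) and the 14-3-3 protein YWHAG, which holds FOXO in the cytoplasm, at -0.61 (adjusted p 0.0366 by edgeR), and each of these calls was lost in 5 of 12 alternatives. With the length correction EP300 was at -0.28 (adjusted p 0.230 by edgeR). FOXO4 was at -0.43 (adjusted p 0.151 by edgeR), and the other sirtuins SIRT2, SIRT3 and SIRT6 were at 0.37, 0.57 and 0.55 (adjusted p 0.258, 0.0666 and 0.0777 by edgeR). The values of these 3 sirtuins thus had the opposite sign to that of SIRT1, and none of the 3 was called.

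Of 25 tested identifiers of FOXO target genes, which count INSR 2 times, 3 were higher and 3 lower in Hampshire, with a list median of 0.03. EIF4EBP1, the translational repressor 4E-BP1, rose from 53.8 ± 3.31 to 135 ± 36.3 CPM (SD, n = 3 each; log2 fold change 1.32, adjusted p 0.00446 by edgeR). The autophagy gene GABARAPL1 rose from 17.9 ± 2.74 to 39.1 ± 9.07 CPM (log2 fold change 1.12, adjusted p 0.00795 by edgeR), and MAP1LC3B, which encodes LC3B, was at 0.49 (adjusted p 0.0469 by edgeR), a call lost in 9 of 12 alternatives. On the other side, RICTOR, a subunit of mTOR complex 2, fell from 5.69 ± 0.782 to 0.917 ± 0.338 CPM (log2 fold change -2.63, adjusted p 0.00233 by edgeR). Its level was low, at 0.640 to 1.29 CPM in Hampshire high. PPARGC1A, which encodes PGC-1alpha, was at -1.74 (adjusted p 0.0131 by edgeR) and lost its call in 2 of 12 alternatives, and 1 of the 2 identifiers of the insulin receptor INSR was at -1.67 (adjusted p 0.0376 by edgeR, lost in 5 of 10). That identifier was at only 0.182 to 0.703 CPM in Hampshire high. The other identifier of INSR was at -0.01 (adjusted p 0.973 by edgeR), so the receptor gene had no single value. PDK4, a classical FOXO1 target, was too variable for a call in either breed, with log2 fold changes of 0.40 (SE 1.05) in Hampshire and -0.54 (SE 1.00) in Pietrain.

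Of 19 tested atrophy ligases and their regulators, 1 was higher and 3 were lower in Hampshire, with a list median of -0.27. UBR2, an E3 ligase of the N-degron pathway, fell from 24.5 ± 0.591 to 5.46 ± 1.00 CPM (log2 fold change -2.17, adjusted p 0.00118 by edgeR), and FBXO40, a muscle F-box protein that targets IRS1, from 135 ± 21.3 to 45.9 ± 19.8 CPM (log2 fold change -1.57, adjusted p 0.00699 by edgeR). TRIM55, which encodes MuRF2, was at -0.80 (adjusted p 0.0273 by edgeR, lost in 5 of 11 alternatives), and STUB1, a chaperone-linked ligase, at 0.56 (adjusted p 0.0335 by edgeR, lost in 9 of 12) and at 0.17 with the length correction. Myostatin (MSTN) was at -0.62 (SE 0.319) in Hampshire and -0.49 (SE 0.348) in Pietrain, with adjusted p-values of 0.178 and 0.939 by edgeR. FBXO40 and UBR2 were thus lower with high loin weight, as was FBXO32, whose value there is a description, while TRIM63 was at -0.08. The 1 higher and 3 lower of 19 stand beside 12% and 14.6% of all genes in Hampshire, and the other 15 were not called.

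Of 15 tested genes of the glucocorticoid receptor machinery, none was higher and 4 were lower in Hampshire, with a list median of -0.40. They were the coactivators MED1 (log2 fold change -1.50, adjusted p 0.00344 by edgeR), NCOA3 (-1.38, adjusted p 0.00764) and NCOA2 (-1.28, adjusted p 0.0162, lost in 3 of 12 alternatives) and the corepressor NCOR1 (-0.76, adjusted p 0.0220), the last named after its value was seen. The chaperones that hold the receptor ready were not called, with HSP90AA1 at -0.53, HSP90AB1 at 0.14 and FKBP4 at -0.16 (adjusted p 0.106, 0.567 and 0.657 by edgeR). HSD11B1, which regenerates active glucocorticoid inside cells, was at 0.62 (SE 0.353; adjusted p 0.219 by edgeR). The coactivators MED1, NCOA2 and NCOA3 and the corepressor NCOR1 were thus all lower in the Hampshire pigs with high loin weight, as was NR3C1, whose value there is a description. These 4 of 15 genes stand beside 26.6% of all genes called in Hampshire.

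Of 12 tested glucocorticoid-induced genes, 1 was higher and 1 lower in Hampshire, with a list median of 0.02. ANGPTL4, a secreted inhibitor of lipoprotein lipase that PPAR factors also induce, rose from 6.76 ± 1.16 to 34.1 ± 14.7 CPM (SD, n = 3 each; log2 fold change 2.34, adjusted p 0.00376 by edgeR), in the pigs in which the adipocyte marker sum was also higher. ZBTB16 was at -1.37 (adjusted p 0.0180 by edgeR, lost in 1 of 11 alternatives). PER1, DUSP1, NFKBIA, KLF9 and GLUL were at -1.04, 0.59, 0.32, -0.49 and -0.15 and were not called (adjusted p 0.0759 to 0.603 by edgeR).

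**Figure D5:**
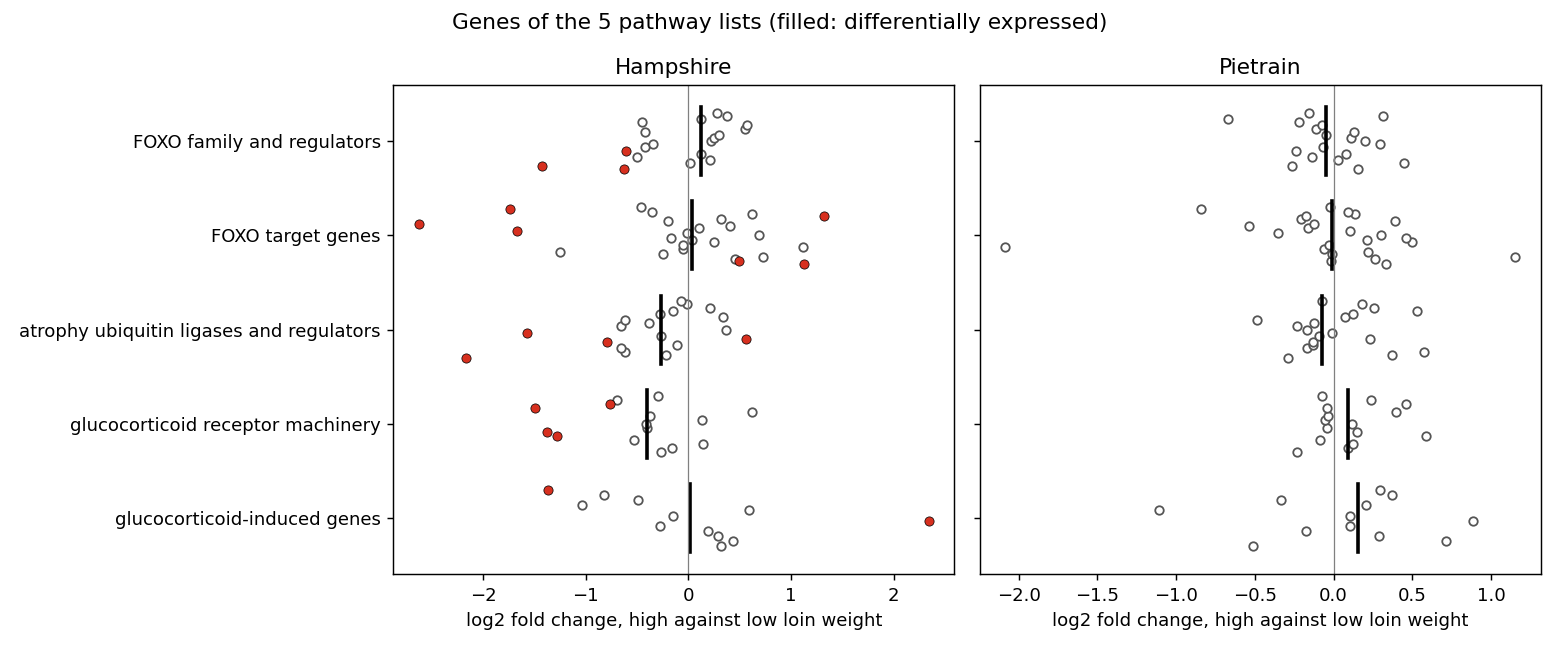
Log2 fold change for high against low loin weight (horizontal axis; the scale differs between panels) of the tested genes of 5 pathway lists (vertical axis) in Hampshire and Pietrain pigs; each circle is a gene, red circles are differentially expressed, and black bars are list medians. In Hampshire 19 circles are red, 14 of them at negative values, and in Pietrain none is.

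For 8 listed genes the loin weight difference itself differed between the breeds by a test of the interaction in edgeR, where 5.9% of 12831 genes did (1.68% more positive and 4.22% more negative in Hampshire). These were EIF4EBP1, whose difference was more positive in Hampshire, and RICTOR, UBR2, MED1, NCOR1, NCOA2, MDM2 and FBXO40, whose difference was more negative there. The trend with gene length was present here too, with a Spearman correlation of -0.337 over 9975 genes for this difference and -0.342 for the breed comparison. EIF4EBP1 spans 3.11 kb and FBXO40 5.79 kb, while MED1, NCOA2, UBR2, RICTOR and MDM2 span 28.04, 56.5, 104, 137 and 172 kb, and the part of length in these differences was not tested. In Pietrain none of these had passed, with log2 fold changes from -0.29 for UBR2 to 0.59 for NCOA2. The count was 7 to 11 when a pig was left out.

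Between the breeds, 4 of 19 FOXO regulators were higher and 6 lower in Hampshire, 3 and 14 of 25 FOXO targets, 3 and 10 of 19 ligases and regulators, none and 5 of 15 genes of the receptor machinery and 2 and 2 of 12 glucocorticoid-induced genes, by edgeR and beside the background of 52.3%. Among FOXO targets the list median was -0.53 on the log2 scale beside 0.00 over all genes. PPARGC1A stood out (log2 fold change -4.94, SE 0.594, adjusted p 3.44e-05 by edgeR). Its means were 2.46 and 8.15 CPM in Hampshire high and low and 101 and 184 CPM in Pietrain high and low. The Pietrain high pigs spread from 5.55 to 183 CPM. The lowest of them lay inside the Hampshire low range of 4.76 to 11.8 CPM. The Pietrain low pigs, at 171 to 201 CPM, lay above all Hampshire pigs. SIRT1 and PPARGC1A were thus both lower on average in Hampshire muscle, and a relation between the 2 was not tested. EIF4EBP1 (1.04), GABARAPL1 (0.52), SIRT2 (0.81), STUB1 (0.73), UBB (0.53), MUL1 (0.74) and ANGPTL4 (1.25) were among those higher in Hampshire, with adjusted p-values of 6.99e-05 to 0.0135 by edgeR. PRMT1 (0.47), YWHAH (0.48), ULK1 (0.45) and ALAS1 (0.50) were higher too (adjusted p 0.0159 to 0.0277 by edgeR), with calls lost in 3, 2, 1 and 8 of 17 alternatives. UBR2 (-2.10), MDM2 (-1.90), FBXO40 (-1.86), RICTOR (-1.34), NCOA3 (-1.17), MED1 (-1.17), KLF9 (-1.13), FBXO30 (-0.999), PTGES3 (-0.81), GLUL (-0.76), MXI1 (-0.75), EP300 (-0.71) and USP7 (-0.54) were among those lower, with adjusted p-values of 2.43e-06 to 0.00151 by edgeR. Of the 12 glucocorticoid-induced genes, KLF9 and GLUL were thus lower and ANGPTL4 and ALAS1 higher in Hampshire, with a list median of 0.15 on the log2 scale. Of the genes of the set, NR3C1 was lower there, CEBPD was higher, and FKBP5 was at -0.08 and not called. For ANGPTL4 the adipocyte marker sums given above moved the same way, and their part was not tested.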

How the data were processed

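Poly(A) libraries were made from the loin muscle of 13 pigs with a kit that does not mark strand, so overlapping and antisense genes could not be told apart. The authors deposited whole-number read counts for each gene, 1 column per pig, on the Sscrofa10.2 build. The submitters' processing notes name FastQC, STAR, RSEM and DESeq2 without versions or roles. Deposited tables of the authors' own comparisons (fold changes and p-values) were used only for gene symbols and coordinates. Of 25322 identifiers, 13168 had a symbol, 7066 of them from those tables. All 13 labelled pigs were used, 4 of them Pietrain pigs with high loin weight. TSC22D3 is not analysed here.

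Counts were filtered with filterByExpr, scaled by TMM and tested with edgeR 4.0.16 (R 4.3.3, quasi-likelihood test) within each breed and, over all 13 pigs, between breeds. Genes were called at a Benjamini-Hochberg adjusted p below 0.05 with a change of 1.2-fold or more (no fold limit for the interaction). The script was tested on simulated counts. Exact permutation tests and within-group correlations used log2(CPM + 0.5). Named were the 9 matched genes, for each list and comparison up to 3 called genes a direction with the smallest adjusted p, and for FOXO3, SIRT1 and CEBPD the 2 best-correlated named genes; genes named as not called, and NCOR1, were chosen after their values were seen. The genes and lists were chosen with earlier results of these data known. All 15 pairs of pigs of 1 group differed beyond sampling noise (chi-square per degree of freedom of at least 21.9). The p-values of the group comparisons set a difference against the spread between these pigs. Alternatives were DESeq2 1.42.0, other size factors, other filters, a correction for gene length, 1 fit over 13 pigs and leaving out each pig.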

Additional observations from a re-analysis of the deposited data

Results flagged for a closer look

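In the Pietrain group with high loin weight, the total count of pig 7 stood apart. Its library held 20134612 counts, and its gap to the next pig was 0.880 of the group's whole range, above Dixon's critical value for 4 samples, a limit that marks about 1 in 20 groups by chance. The same pig had the highest Pietrain levels of FBXO32, TRIM63 and CEBPD, and the part of depth in that was not tested.

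The loin weight difference of 8 genes of the pathway lists differed between the breeds by a test of the interaction in edgeR. As the log2 fold change in Hampshire minus that in Pietrain, it was 1.53 for EIF4EBP1 (SE 0.278, adjusted p 0.00793), -2.46 for RICTOR (SE 0.458, adjusted p 0.00888), -1.85 for UBR2 (SE 0.348, adjusted p 0.00968) and -1.42 for MED1 (SE 0.271, adjusted p 0.00998). It was -1.19 for NCOR1 (SE 0.253, adjusted p 0.0158), -1.83 for NCOA2 (SE 0.391, adjusted p 0.0159), -1.13 for MDM2 (SE 0.272, adjusted p 0.0277) and -1.51 for FBXO40 (SE 0.398, adjusted p 0.0401).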

How the results depend on the processing

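With 3 or 4 pigs a group, single pigs set many of these values. Leaving out each pig in turn, the number of genes called was 0 in Pietrain (main 0; DESeq2 called 1), 1224 to 3049 in Hampshire (main 3256; 1224 without low pig 3, 1760 without high pig 10, 2091 without high pig 9), 5869 to 6958 between breeds (main 6705) and 379 to 1052 for the interaction (main 757; DESeq2 called 1223). Called genes of the pathway lists were 10 to 17 in Hampshire (main 19), of which 9 to 15 were among the main 19 (21 with the length correction, 15 of them shared). Of the called Hampshire genes 45.1% were higher with high loin weight, against 30.5% without low pig 3 and 34.5% without high pig 9. Directions turned as follows. SIRT1 in Pietrain ran from -0.53 to 0.0384 (without low pig 3). Between breeds, FKBP5 ran from -0.54 to 0.26 and was at 0.15 without Hampshire low pig 2, 0.00751 without Hampshire low pig 3, 0.23 without Pietrain high pig 1 and 0.26 without Pietrain low pig 5. FOXO3 ran from -0.20 to 0.0319 (without Pietrain high pig 1), FBXO32 from -0.25 to 0.27 (without Pietrain high pig 7; 0.0165 without Pietrain low pig 8), and KLF15 from -0.28 to 0.0298 (without Pietrain low pig 8); none of these was called. In Pietrain, the difference of mean log2 levels of TRIM63 changed sign without low pig 3 (exact permutation p 0.933; 0.400 to 1 over the pigs left out). The within-group r of FOXO1 with FBXO32 ran from -0.379 (without Pietrain high pig 7) to 0.551, that of CEBPD with FKBP5 from -0.0566 (without Pietrain low pig 3) to 0.340, and that of FBXO32 with TRIM63 from 0.0352 to 0.708. In Hampshire, FOXO3, SIRT1, FBXO32, NR3C1, KLF15 and CEBPD kept their direction under all alternatives run, while FOXO1, FKBP5 and TRIM63 changed sign there; the edgeR direction in Pietrain held for the 8 genes other than SIRT1. The length correction was not run between breeds or for the interaction, since 77.7% of the genes had coordinates, nor for TRIM63, which had none. No paired analysis was possible because a pig's number names a different animal in each group and the high and low groups of a breed share none. Counts of 11 to 18 for SIRT1 in Hampshire high limit its precision. The low levels of RICTOR and of the called INSR identifier in that group limit theirs as well.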
